A study of Mus musculus with 15 samples.

Results

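The stomach of C57BL/6 mice at postnatal day 1 (D1) was compared with its neighbours in a developmental series, the last embryonic stage in embryonic development (E18.5, named by its embryonic day) and postnatal day 3 (D3). Embryonic days were dated from the vaginal plug, and whole stomachs were taken from embryos or newborn mice that carried no other allele or treatment. The comparison used 3 of the 15 transcriptomes of the series, which ran from E12.5 to week 8 (W8) with 1 transcriptome per timepoint. Because no timepoint had a replicate, the differences below describe these 3 transcriptomes, no p-value was calculated, and differences between animals or dissections were not measured. The labels name stomach as the tissue, whereas the methods of the study name liver as the source of the RNA in a single sentence on RNA extraction.

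The measurement was FPKM, the fragments of a gene scaled to its transcript length and to the depth of the library, with the deposited lower and upper bounds. Each bound comes from 1 transcriptome, so it holds no difference between animals or dissections. A gene was tested where its FPKM reached 1 in at least 1 of the 3 transcriptomes. This left 15327 of 44788 gene symbols. A gene was called higher at D1 when its log2(FPKM + 1) was at least 1 unit above that of both neighbours and its lower bound at D1 was above both upper bounds, and called lower in the mirrored case. Differences on this scale understate the change of genes with low FPKM. In units of 1e6, the bounds gave estimates of about 13.2, 14.1 and 15.0 fragments at E18.5, D1 and D3, if they are Poisson counting bounds. For some genes with high FPKM they were wider than that. Slpi rose from 505 FPKM at E18.5 to 1253 at D1, but its estimated fragments only from 1665 to 2034. The fragment estimates are therefore too low for such genes. A single fragment of a gene was worth a median of 0.0551 FPKM at D1. The sum of 14 stomach markers, among them chymosin, pepsinogen 5 and the proton pump subunits, was 58797 FPKM at E18.5, 81440 at D1 and 128438 at D3, so stomach genes were abundant in each of them. Xist, the RNA of the inactive X chromosome, stood at 16.52 FPKM at E18.5, 0.15 at D1 and 0.09 at D3, and Ddx3y of the Y chromosome at 6.75, 10.3 and 11.3 FPKM, so X-inactivation RNA was near 0 at D1 and D3 and Y-linked RNA was present in all 3. The part of sex in the results was not tested.

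Birth separates the stomach from the placenta and starts feeding on milk. In the mouse, the proximal forestomach is lined by a stratified squamous epithelium that builds a cornified surface, and the distal glandular stomach by mucous, acid-secreting and zymogen-secreting cells. Hepatocytes of the adjacent liver secrete albumin, the fibrinogen chains, apolipoproteins and protease inhibitors into plasma, and the perinatal liver also still makes blood cells. HNF1 is a transcription factor of hepatocytes and some other epithelia. The CCAAT box is frequent in promoters of genes of the cell cycle.

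At D1, 179 genes (1.17% of those tested) were called higher and 14 (0.0913%) lower than both neighbours. Of the 179 genes, 68 were members of the liver list and 111 were not. D1 was the highest of all 15 timepoints for 162 of the 179, and for 7.01% of all genes tested. The calling rule selects genes that are high at D1, so this count is no independent support. Both neighbours were under 1 FPKM for 66 of the 179. All 14 genes that exceeded the nearer neighbour by at least 3 log2 units were liver genes. Another 40 genes passed the size limit upward and 7 downward with overlapping bounds, many of them small RNAs and predicted loci. The genes nearest to the limit were Cpa4, Slc6a13 and Hmox1 inside, each just past 1 log2 unit, and 9930012K11Rik, Lce1f and Lce6a outside it, the last at 0.99. The counts rested on both neighbours, since 376 genes were called higher and 158 lower without E18.5, and 395 and 122 without D3. With E17.5 and D5 added to the range, 122 were called higher and 0 lower, while 66 liver genes were among the 122.

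**Figure D1:**
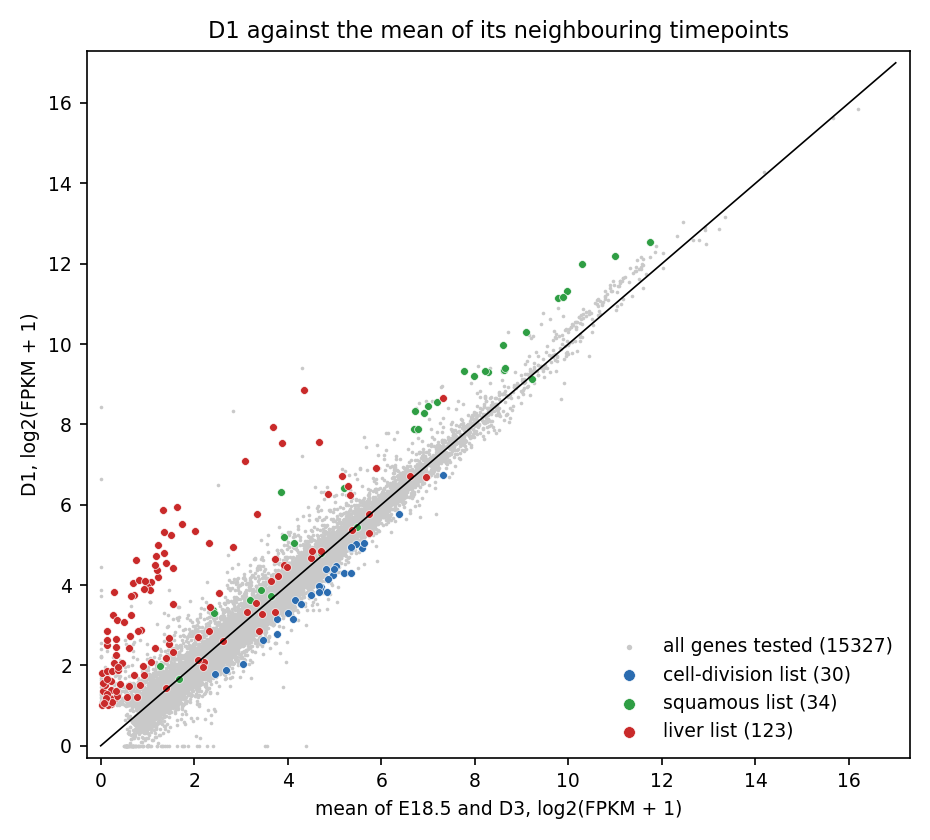
Each point is a tested gene, with the mean of E18.5 and D3 on the horizontal axis and D1 on the vertical axis, both in log2(FPKM + 1), and the line marks equal values. Liver genes (red) form a cloud above the line at low neighbour values, squamous genes (green) lie above it at high values, and the 30 cell-division genes (blue) lie below it.

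The same comparison was made at every other inner timepoint against its adjacent timepoints, as a description. Genes called higher numbered 4 to 62 there. The 62 were found at W3 (0.426% of the genes tested there), of which 23 were liver genes. The comparisons at E17.5, E18.5, D3 and D5 share transcriptomes with that at D1, and the intervals between timepoints were unequal.

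Promoters are shown for a few members of the liver, squamous and cell-division groups described below, chosen as examples. The windows run from 250 bases before to 50 bases after the start and were taken from RefSeq (build GRCm38.p6), for which 56 of the 68 called liver genes matched. The letters were searched on both strands, and they and the windows shown were chosen after the values were seen, the windows because they held the letters. A longer consensus of HNF1, searched first and made of GTTAAT, any base and the reverse complement of GTTAAT without its last letter, was in 1 of 63 windows of called liver genes (1.59%) and in 20 of all 32851 windows (0.0609%). The half-site GTTAAT was in 19 of the 63 windows (30.2%) and in 7.10% of all windows. Every match of the full consensus contains the half-site. CCAAT was in 24 of 26 windows of cell-division genes (92.3%) against 37.4% of all. The CHR letters TTTGAA were in 13 of these 26 windows (50%) against 17.9% of all. The AP-1 letters TGANTCA were in 11 of the 63 liver windows, in 3 of 10 windows of called squamous genes and in 7.81% of all. TATAAA was in 3 of 10 windows of called squamous genes, in 28.6% of the liver windows and in 13.6% of all. The windows are those of Alb, encoding albumin (chr5:90460620-90460919, plus strand), Afp, encoding alpha-fetoprotein (chr5:90490464-90490763, plus strand), Fgb, encoding the fibrinogen beta chain (chr3:83049814-83050113, minus strand), Lor, encoding loricrin (chr3:92083093-92083392, minus strand), and Cdk1, encoding the mitotic kinase (chr10:69352863-69353162, minus strand). Capitals mark GTTAAT or its reverse complement in the liver genes, TATAAA in Lor and CCAAT or its reverse complement in Cdk1. A match describes letters and shows no binding.
Alb: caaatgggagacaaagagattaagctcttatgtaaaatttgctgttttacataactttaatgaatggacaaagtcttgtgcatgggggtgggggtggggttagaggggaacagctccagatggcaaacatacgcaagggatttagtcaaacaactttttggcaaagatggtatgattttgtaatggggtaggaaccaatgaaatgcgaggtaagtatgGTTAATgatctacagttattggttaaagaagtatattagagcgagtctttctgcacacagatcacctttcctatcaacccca
Afp: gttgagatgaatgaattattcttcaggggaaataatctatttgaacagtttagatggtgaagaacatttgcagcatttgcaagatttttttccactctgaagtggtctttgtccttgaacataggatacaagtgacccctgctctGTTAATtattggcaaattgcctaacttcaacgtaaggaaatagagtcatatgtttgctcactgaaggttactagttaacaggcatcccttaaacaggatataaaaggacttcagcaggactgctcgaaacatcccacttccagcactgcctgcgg
Fgb: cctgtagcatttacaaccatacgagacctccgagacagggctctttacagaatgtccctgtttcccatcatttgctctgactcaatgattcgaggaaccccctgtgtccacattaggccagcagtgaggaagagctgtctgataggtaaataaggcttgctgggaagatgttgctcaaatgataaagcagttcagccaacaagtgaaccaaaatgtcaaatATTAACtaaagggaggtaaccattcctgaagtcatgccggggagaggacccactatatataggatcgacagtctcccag
Lor: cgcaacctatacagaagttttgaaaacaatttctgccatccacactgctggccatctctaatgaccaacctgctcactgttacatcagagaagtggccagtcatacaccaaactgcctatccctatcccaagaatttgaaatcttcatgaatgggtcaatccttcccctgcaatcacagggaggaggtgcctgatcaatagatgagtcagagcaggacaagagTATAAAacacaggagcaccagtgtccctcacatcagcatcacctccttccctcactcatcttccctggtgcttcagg
Cdk1: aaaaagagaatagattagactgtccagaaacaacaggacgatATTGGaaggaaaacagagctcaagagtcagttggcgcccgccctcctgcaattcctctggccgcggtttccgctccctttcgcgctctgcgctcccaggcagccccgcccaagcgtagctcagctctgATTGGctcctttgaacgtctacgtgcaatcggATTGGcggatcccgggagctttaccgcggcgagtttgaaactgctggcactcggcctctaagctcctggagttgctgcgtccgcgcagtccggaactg
The half-site began 32 bases before the start in Alb, 105 in Afp and 29 in Fgb, TATAAA 27 bases before it in Lor, and the 3 CCAAT matches of Cdk1 208, 80 and 48 bases before it.

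Hepatocyte genes were far higher at D1 than at either neighbour. Of the 170 genes of the liver list, 169 were in the files, 123 passed the filter and 68 were called higher, with 0 lower. Of the 123, 49 passed the filter through D1 alone. The median difference of D1 from the mean of the neighbours over all 169 was 0.97 log2 units, against 0 over all 44788 symbols and -0.05 over all genes tested. By position alone, 95 members lay above both neighbours with bounds apart (8.78% of all genes tested did) and 2 lay below (11%). The 2 below were Cfi, a complement regulator, at 123 FPKM at E18.5, 102 at D1 and 125 at D3, and Ugt2b34, a conjugating enzyme. Of 140 members not known to be made near the stomach, 58 were called, and of 29 that tissues near the stomach also make, 10. Over all genes tested, 1.17% were called higher. Of the members that passed the filter, 46 of 97 in the first group and 3 of 26 in the second did so through D1 alone.

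Alb was measured at 14.6 FPKM at E18.5, 461 at D1 (bounds 453 to 468) and 25.8 at D3. This was 17.8-fold over the higher neighbour, and the next highest of the 15 timepoints was W3 with 65.4 FPKM. Afp, the albumin of fetal plasma and its neighbour on chromosome 5, was at 8.27, 186 and 22.3 FPKM. Ahsg, encoding fetuin-A, was at 5.97, 242 and 22.5 FPKM. In each of these, D3 was the higher neighbour and D1 stood apart from both. All 12 hepatocyte markers were called higher, and their summed level was 35.6 FPKM at E18.5, 1099 at D1 and 78.1 at D3. At the other timepoints the sum lay between 5.99 FPKM at E15.5 and 162 at W3.

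**Figure D2:**
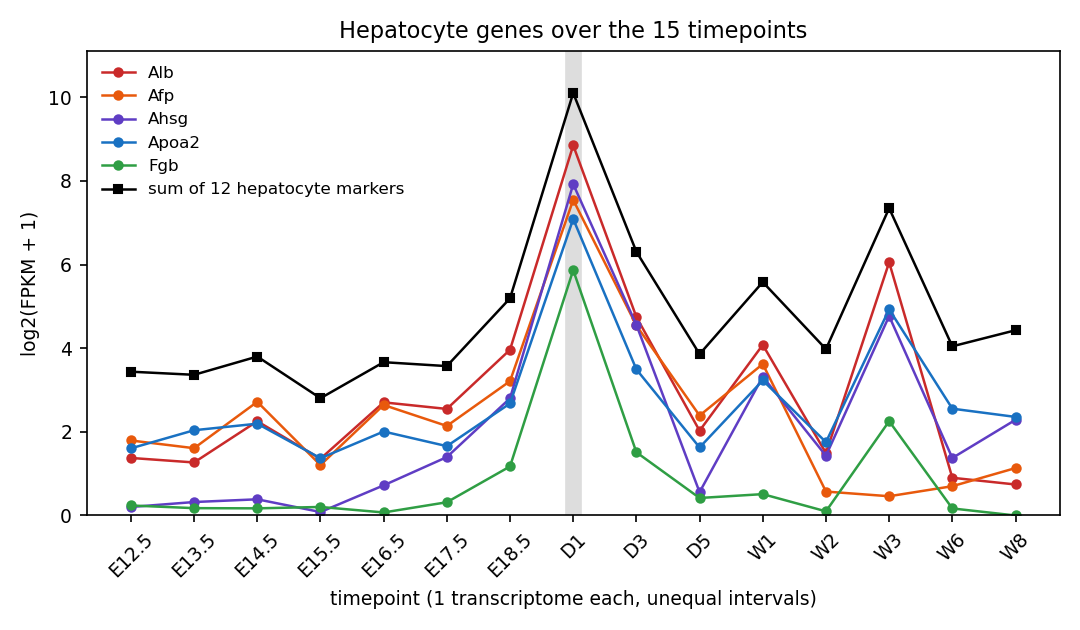
Lines give 5 hepatocyte genes and the sum of the 12 hepatocyte markers in log2(FPKM + 1) at the 15 timepoints, with 1 transcriptome each and D1 shaded. Each line is highest at D1, and the sum is next highest at W3.

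Of the carrier proteins of plasma, 16 of 25 were called higher. Over all genes tested 1.17% were, a share that applies to the role counts below too. Some members passed the filter only because they were high at D1. They were 4 of 20 carrier genes that passed, 4 of 17 apolipoprotein, 7 of 16 coagulation and 2 of 7 protease inhibitor genes. For the other roles they were 5 of 11 complement, 10 of 16 amino acid, 3 of 7 glucose, 11 of 18 bile acid and 3 of 11 regulator genes. Trf, encoding the iron carrier transferrin, was at 22.5, 186 and 26.5 FPKM at E18.5, D1 and D3. Hp, encoding the hemoglobin-binding haptoglobin, was at 0.88, 38.9 and 2.51 FPKM. Rbp4, encoding the retinol carrier, was at 5.71, 53.5 and 14.4 FPKM. Transthyretin was an exception, with Ttr at 95.8, 104 and 97.2 FPKM and overlapping bounds.

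Of the apolipoproteins and lipid secretion genes, 11 of 20 were called. Apoa2, of high-density lipoprotein, was at 5.40, 135 and 10.3 FPKM. Apoh was at 1.45, 36.9 and 2.32 FPKM. Apoa1, which the intestine also makes, was at 129, 399 and 193 FPKM, so it exceeded the higher neighbour by 2.06-fold, and D1 ranked 5 among the 15 timepoints. Genes with roles in fat absorption ran otherwise, with Fabp1, encoding a fatty acid-binding protein, at 22.3, 119 and 151 FPKM and Apoa4 at 5.34, 8.70 and 17.9 FPKM, both highest of the 3 at D3.

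Of the coagulation and fibrinolysis genes, 11 of 22 were called. The fibrinogen chains lie side by side on chromosome 3 (Fgg from 83007727, Fga from 83026153 and Fgb from 83042303, counted from 1 on GRCm38). Fgb was at 1.26, 57.4 (bounds 54.4 to 60.4) and 1.85 FPKM, which was 31.0-fold over D3 and, at 4.36 log2 units, the largest distance from the nearer neighbour in the liver list. Fga was at 1.09, 31.0 and 1.63 FPKM and Fgg at 2.48, 44.95 and 2.20 FPKM. Plg, encoding plasminogen, was at 0.53, 12.45 and 0.75 FPKM. F7 and F9, encoding coagulation factors, were at 0.28 and 0.29 FPKM at D1 and below the filter in all 3 transcriptomes.

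Of the protease inhibitors of plasma, 7 of 9 were called. The Serpina1 genes, encoding alpha-1-antitrypsin on chromosome 12, are near-identical copies, so the split among them is uncertain. Serpina1e was at 1.35, 60.2 and 3.04 FPKM, and the other 4 copies were also called, with 14.02 to 39.5 FPKM at D1. Complement and pentraxin genes were called in 2 of 17 cases, both pentraxins. Apcs was at 0.30, 15.7 and 1.04 FPKM and Crp at 0.04, 2.53 and 0 FPKM. C3, the central complement component, was at 2.07, 29.9 and 15.2 FPKM and just under the limit at 0.93 log2 units.

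Enzymes of hepatocytes were counted by pathway. Of the amino acid and urea genes, 8 of 23 were called. Bhmt, which remethylates homocysteine, was at 0.09, 13.1 and 0.36 FPKM. Hpd, of tyrosine breakdown, was listed at 0 at E18.5, 8.58 at D1 and 0.42 at D3. Cps1, the first enzyme of the urea cycle, was at 0.15, 3.20 and 0.28 FPKM, while Ass1, of the same cycle and of other tissues, was at 63.9, 40.5 and 25.8 FPKM. Of the genes of glucose metabolism, 4 of 8 were called. They included the gluconeogenic Fbp1 (0.48, 16.47 and 1.08 FPKM), Pck1 (0.07, 4.47 and 0.46 FPKM) and G6pc (listed at 0, then 2.18 and 0.21 FPKM). Of the bile acid and drug metabolism genes, 5 of 30 were called. Cyp7a1, the rate-limiting enzyme of bile acid synthesis, was at or below 0.07 FPKM in all 3. Of the regulators and hormones, 4 of 15 were called, among them Igfbp1 at 0.68, 26.9 and 2.94 FPKM.

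RNA of the liver list was also measured at lower levels at the neighbours. Among the 65 called liver genes with at least 50 estimated fragments at D1, the level at E18.5 was a median of 3.50% of that at D1 (range 0 to 41.2%) and the level at D3 a median of 9.70% (range 0 to 48.4%). The liver list took 0.119% of all FPKM at E18.5, 0.400% at D1 and 0.149% at D3. This share is not specific to liver. Members that tissues near the stomach also make summed to 574, 1481 and 811 FPKM at E18.5, D1 and D3. The members not known to be made there summed to 439, 2155 and 491 FPKM. The ratio of Alb to Afp was 1.77 at E18.5, 2.48 at D1 and 1.16 at D3. In whole-organ RNA, more cells of a type and more RNA per cell cannot be told apart. Whether hepatocyte RNA came from attached liver tissue, from the RNA source named in the methods or from the stomach was not tested.

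Lists of blood and macrophage genes were examined as markers of other cell types. Of 13 neutrophil granule genes, 7 were called higher and 0 lower, and 5 of the 10 that passed the filter did so through D1 alone. Of all genes tested, 1.17% were called higher. S100a8, encoding a calcium-binding alarmin, was at 6.61, 26.1 and 4.73 FPKM, and it was higher still at E16.5 (27.4 FPKM). Ltf, encoding lactoferrin, which epithelia also make, was at 14.04, 42.5 and 12.1 FPKM. Ngp was at 0.65, 6.44 and 0.89 FPKM, Camp at 1.91, 8.95 and 1.26 FPKM, and Mpo, encoding myeloperoxidase, at 0.37, 2.20 and 0.26 FPKM. At D1 Ngp rested on 115 estimated fragments and Camp on 58.2, against 2091 for Ltf.

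Of 14 red-cell genes, 3 were called higher. Slc4a1, encoding the anion exchanger of the red-cell membrane, was among them at 0.53, 5.18 and 0.33 FPKM, as was the erythroid regulator Klf1 at 0.29, 1.62 and 0.26 FPKM. The globins above 0 FPKM lay between the neighbours, with Hba-a1 at 1669, 1452 and 280 FPKM. Of 5 genes used as markers of Kupffer cells, the liver macrophages, 3 passed the filter, all 3 through D1 alone. Not all of the 5 are restricted to liver. Cd5l was called at 0, 1.99 and 0.16 FPKM. Clec4f (0.05, 1.04 and 0.07 FPKM) and Marco (0.06, 1.199 and 0.16 FPKM) lay above both neighbours with bounds apart, and Vsig4 and Timd4 were below the filter. The general macrophage genes C1qa, C1qb and C1qc were 1.33- to 1.42-fold over the higher neighbour. Of 30 exocrine pancreas genes, 0 were called, and Ctrb1, encoding chymotrypsinogen, was at 0.26, 12.6 and 84.5 FPKM, highest of the 3 at D3. No member of the lists for fat, striated muscle, intestine or lymphocytes was called. The genes tested were 24 for exocrine pancreas, 4 for brown fat, 10 for white fat, 11 for muscle, 10 for intestine and 4 for lymphocytes. Of all genes tested, 1.17% were called higher, so 0 calls in lists this small say little about the presence of these tissues. The part of these cell types in the other results was not tested.

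The next group, also chosen for description after its values were seen, was the squamous epithelium. Of 37 genes, 11 were called higher and 0 lower, 26 lay above both neighbours with bounds apart and 0 below. Over all genes tested, these shares were 1.17%, 0.0913%, 8.78% and 11%. The median difference over all 37 was 1.09 log2 units, against 0 over all 44788 symbols and -0.05 over all genes tested. D1 was the highest of the 15 timepoints for 17 of the 37 genes, and for 7.01% of all genes tested. The called genes included Lor, which encodes loricrin, the main protein of the cornified envelope, at 862, 4049 and 1825 FPKM. All 6 Lce3 genes of the list, which encode late cornified envelope proteins, were called. Lce3d was at 11.2, 78.3 (bounds 71.0 to 85.6) and 16.1 FPKM, 4.88-fold over D3, and Lce3f was at 208, 638 and 226 FPKM. These copies lie close together on chromosome 3 and are alike in sequence, so the split among them is uncertain. Cnfn, encoding cornifelin, was at 1089, 2274 and 714 FPKM, and Sbsn, encoding suprabasin, at 302, 640 and 288 FPKM.

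**Figure D3:**
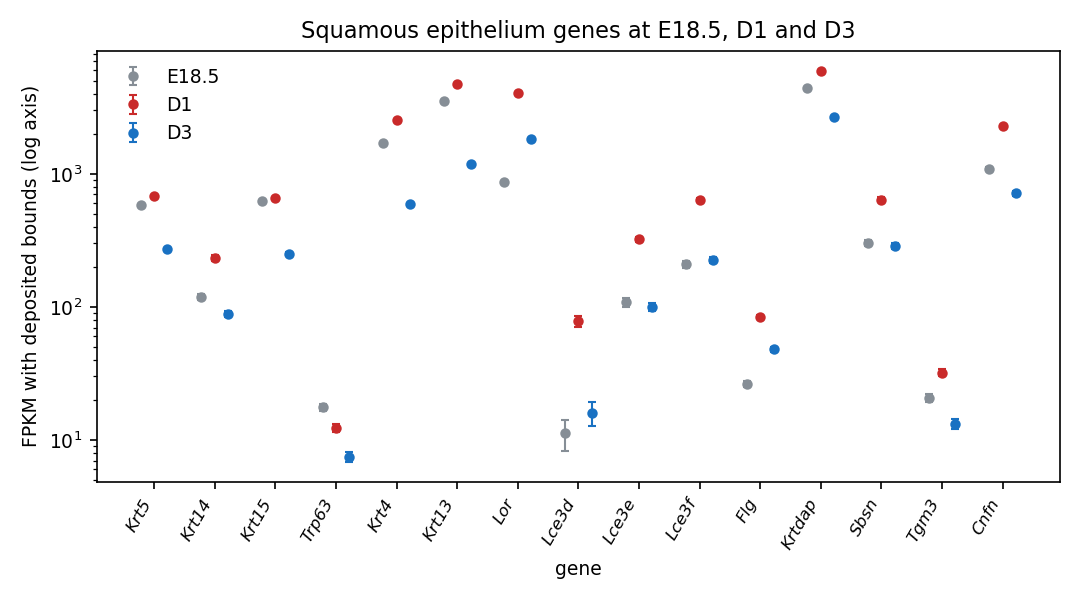
Points give FPKM on a log axis at E18.5 (gray), D1 (red) and D3 (blue), with the deposited bounds as bars, for basal genes (Krt5 to Trp63), suprabasal keratins (Krt4, Krt13) and envelope genes (Lor to Cnfn). D1 is the highest of the 3 for each gene shown except Trp63, and the distance is smallest for Krt5 and Krt15.

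When the list was divided by layer, a division also made after the values were seen, 11 of 22 late envelope genes and 0 of 6 basal genes were called. The basal keratin Krt5 was at 582, 681 and 272 FPKM, and Krt14 at 118, 234 and 88.6 FPKM, just under the limit at 0.98 log2 units. Trp63, encoding p63, the regulator of basal cells, ran downward with 17.54, 12.3 and 7.44 FPKM. The 4 suprabasal keratins of the list, Krt1, Krt10, Krt4 and Krt13, all lay above both neighbours with bounds apart, Krt13 at 3510, 4703 and 1180 FPKM. D1 was the highest of the 15 timepoints for 0 of the 4, and Krt1 and Krt10 were higher still at D5. The summed envelope genes were at 10584, 20491 and 8515 FPKM and the summed basal genes at 1375, 1611 and 629 FPKM. Their ratio of 7.70, 12.7 and 13.54 did not peak at D1. Among the 3 timepoints, each sum was highest at D1 and the ratio was highest at D3.

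Between Lor and the farthest envelope gene of the list on chromosome 3 (92080271 to 93449077), the epidermal differentiation complex holds 68 symbols, of which 48 were tested and 14 called higher. In this span 33 lay above both neighbours with bounds apart and 1 below. Over all genes tested, 1.17% were called higher, 8.78% lay above and 11% below. The ends of the span were set by genes of the list, and 18 list members lie in it, so its counts are no separate support. Of the 14, Lor, Sprr1a, Lce3a to Lce3f and Crct1 were already among the calls of the list. Those not in the list were Kprp, at 69.9 FPKM at D1, and Lce1c, Lce1d, Lce1g and Lce1i, at 174 to 491 FPKM. Among the 83 called genes that belonged to no list were further genes known from cornified epithelia. Asprv1, encoding a protease that processes filaggrin, was at 838, 1762 and 596 FPKM, Cdsn, encoding corneodesmosin, at 23.9, 78.4 and 29.0 FPKM, Krt78 at 21.1, 59.9 and 26.2 FPKM, and Calm4, a calmodulin-like gene, at 31.8, 204 and 74.4 FPKM. The kallikreins Klk6, Klk8 and Klk9 were called too, Klk9 at 30.3, 78.6 and 21.0 FPKM. The limit and the scaling mattered for the squamous list, with 6 called when FPKM were scaled to a fixed sum without mitochondrial and liver genes, 6 with E17.5 and D5 added to the range and 24 without E18.5.

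Genes of the no-list group also included some that hepatocytes are known to make. Slc27a2, encoding a fatty acid transporter of liver and kidney, was at 0.13, 7.46 and 0.66 FPKM. Prodh2 was listed at 0 at E18.5 and was at 4.14 and 0.21 FPKM after it, and Inhbe was listed at 0 and then at 2.90 and 0.12 FPKM. Akr1b7 was listed at 0 at both neighbours and at 4.85 FPKM at D1, and the next highest timepoint was W2 with 0.33 FPKM. H2-Q10, a secreted MHC class I gene of liver, was at 0.47, 4.79 and 0.42 FPKM.

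Cell-division genes were lower at D1 than at both neighbours. By the limit of 1 log2 unit, 0 of 30 were called, so a second rule of any size with bounds apart was applied after this was seen. Under that rule 30 of 30 lay below both neighbours, where 11% of all genes tested did. The median difference was -0.71 log2 units, against -0.05 over all genes tested. Top2a, encoding topoisomerase II, was at 47.8, 18.7 (bounds 17.6 to 19.7) and 33.0 FPKM, Mki67, encoding the proliferation antigen Ki-67, at 27.0, 13.1 and 21.98 FPKM, and Cdk1 at 29.3, 14.1 and 21.0 FPKM. The replication gene Mcm2 was at 26.5, 14.7 and 22.6 FPKM and Pcna, the sliding clamp, at 175, 105 and 146 FPKM. The sum of the list was 1088 FPKM at E18.5, 592 at D1 and 835 at D3. It was lower than at D1 only at W2, W3, W6 and W8, where it lay between 296 and 493 FPKM. With E17.5 and D5 in the range, 18 of 30 stayed below with bounds apart.

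**Figure D4:**
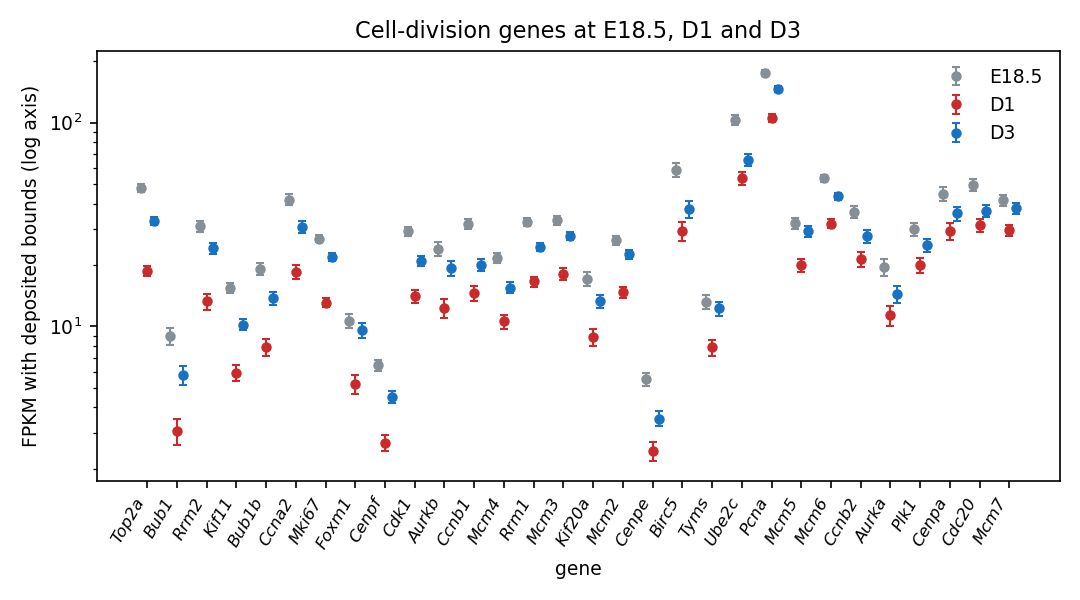
Points give FPKM on a log axis at E18.5 (gray), D1 (red) and D3 (blue) for the 30 cell-division genes in order of their difference at D1, with the deposited bounds as bars. The red point is the lowest of the 3 for every gene, and E18.5 is the highest.

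The 14 genes called lower included Nuf2 (18.0, 6.33 and 13.98 FPKM), Depdc1a (7.60, 2.25 and 6.19 FPKM) and Shcbp1 (11.3, 3.88 and 8.94 FPKM), which act in mitosis, and Rad51ap1, of DNA repair, at 8.02, 3.42 and 8.26 FPKM. Spp1, encoding osteopontin, was at 114, 51.1 and 111 FPKM, and Rgs5, a marker of pericytes, at 25.8, 11.6 and 30.5 FPKM. Phgr1, of intestinal-type epithelium, was at 54.6, 23.4 and 63.8 FPKM. Pet117, a mitochondrial assembly factor, had the largest drop, from 15.7 and 12.45 to 1.74 FPKM, but rested on 1.32 estimated fragments at D1. D1 was the lowest of the 15 timepoints for 5 of the 14. Without E18.5 or D3 the count of lower genes was far higher, as given above.

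**Figure D5:**
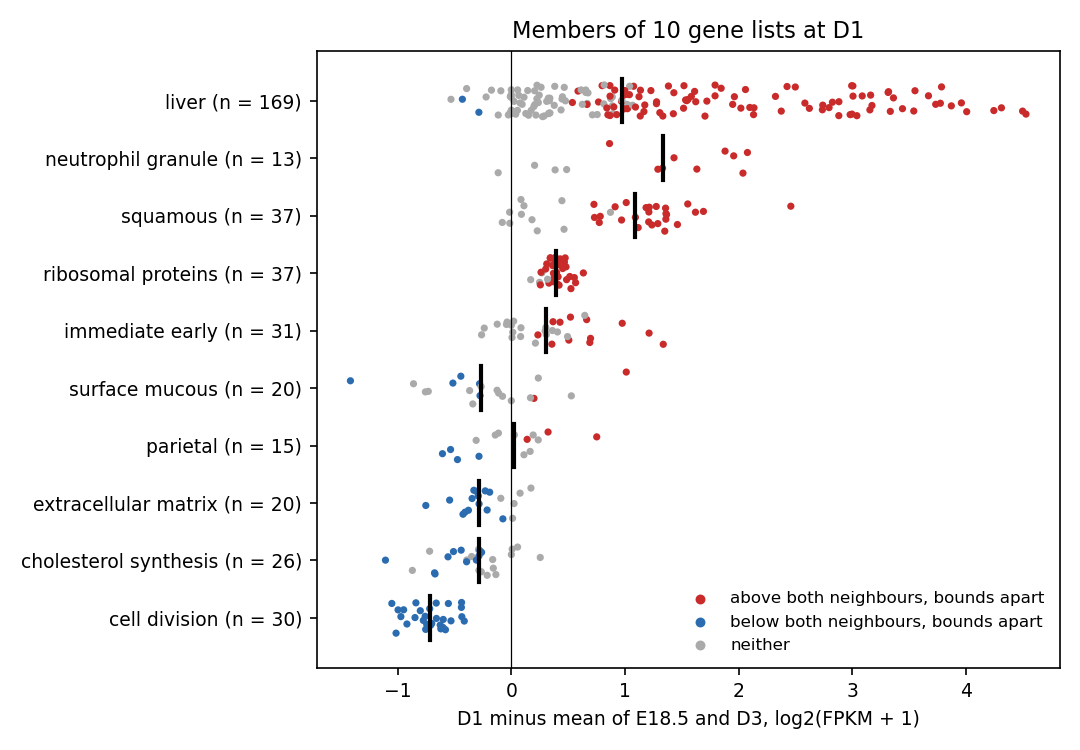
Each point is a gene, placed by D1 minus the mean of E18.5 and D3 in log2(FPKM + 1), for 10 gene lists, with black bars at list medians and colors for genes above or below both neighbours with bounds apart. The medians run from -0.71 for cell division to 1.33 for neutrophil granule genes, and single liver genes reach 4.53.

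Other lists showed smaller shifts without calls. Of 37 ribosomal protein genes, 33 lay above both neighbours with bounds apart and 0 below, with a median difference of 0.39 log2 units. Rps28 was at 3193, 4372 and 2486 FPKM. Of 20 collagen and matrix genes, 15 lay below, and Lum, encoding lumican, was at 110, 61.7 and 99.6 FPKM. Of 26 genes of cholesterol and fatty acid synthesis, 11 lay below, with Insig1 at 79.5, 21.9 and 29.1 FPKM. Counts of this kind depend on scaling. Over all genes tested, 1346 lay above and 1683 below as deposited, 1706 and 1295 with median-ratio scaling, and 819 and 3187 with a fixed sum without mitochondrial and liver genes, while ribosomal genes above numbered 36 and 23, matrix genes below 11 and 16, cholesterol and fatty acid synthesis genes below 8 and 17, and cell-division genes below 30 and 30.

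Of 31 immediate early genes, which respond to stimuli within minutes, Fos (8.12, 24.0 and 9.72 FPKM) and Egr1 (6.67, 18.45 and 8.20 FPKM) were called higher. By position, 12 lay above both neighbours with bounds apart. The shares over all genes tested were 1.17% called higher and 8.78% above. D1 ranked 9 of the 15 timepoints for Fos and 6 for Egr1, and both were highest at W1 (60.9 and 46.2 FPKM). Fgf21, a fasting hormone, was listed at 0 at both neighbours and was at 1.47 FPKM at D1. Hmox1, which degrades heme, was at 12.7, 48.8 and 23.8 FPKM. Slpi, a secreted inhibitor of neutrophil proteases, was at 505, 1253 and 341 FPKM, and Upk1b, of mesothelium and urothelium, at 8.90, 24.3 and 8.60 FPKM.

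The lists of glandular genes held no calls at D1. Of all genes tested, 1.17% were called higher and 0.0913% lower, so 0 calls in lists of 15 and 20 genes are near these shares. By position, 8.78% of all genes tested lay above and 11% below. Of 15 parietal cell genes, 0 were called, while 3 lay above both neighbours with bounds apart and 4 below. Kcnj15 was at 21.7, 15.7 and 24.7 FPKM, and Cckbr, encoding the gastrin receptor, at 1.06, 2.43 and 1.01 FPKM. Of 20 surface and neck mucous genes, 0 were called, while 2 lay above and 5 below. Aqp5, encoding a water channel, was at 1.28, 2.74 and 0.51 FPKM. Gkn3 was at 93.2, 53.3 and 222 FPKM, and Cldn18, a tight junction gene of gastric epithelium, at 220, 160 and 216 FPKM. Pgc, encoding the zymogen progastricsin, ran upward with 463, 1214 and 1558 FPKM.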

How the data were processed

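The study's authors deposited 1 gene table per timepoint with FPKM values and lower and upper bounds. According to the methods of the study, reads were filtered, mapped to GRCm38.p2 with HISAT2 and quantified with StringTie. The submitters' processing notes name Bowtie 0.12.2 and FastQC, and the layout of the deposited files is that of Cufflinks, so the aligner behind the FPKM is uncertain. FPKM holds no whole counts, so no count test was run.

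Where several entries carried 1 symbol, their FPKM and bounds were added up, and differences were taken on log2(FPKM + 1) with Python 3.11.15, NumPy 2.4.6 and pandas 2.3.3. Bounds were symmetric in 100% of 18631 entries at D1 with a lower bound above 0, and fragments were estimated from them as Poisson counts. This gives too few fragments where the bounds are wider than counting error. No read depth was stated in the files. Positions were counted from 1 after adding 1 to the start, which matched the reference for 21338 of 31869 symbols. The comparison was run on simulated Poisson counts with Poisson bounds and known shifts at D1. The simulation held no differences between animals or dissections, so it checks the calculation and not the calls in these data. Groups came from the age labels.

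Named genes were the 15 liver genes with the largest distance from the nearer neighbour, the hepatocyte markers, up to 20 genes outside the liver list in each direction with at least 50 fragments, and the 3 members of each other list furthest outside the range. Some genes that these rules select are not reported here. Others were named after their values were seen, among them the squamous, no-list, promoter and role examples, and Bhmt was moved from the bile acid to the amino acid group after its values were seen. The members and lists were chosen with earlier results of these data known, so no list is independent evidence. The alternatives were pseudocounts, filters, scalings, limits, the use of bounds, entries and neighbours.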

Additional observations from a re-analysis of the deposited data

How the results depend on the processing

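With 1 transcriptome per timepoint, the bounds hold no difference between animals, and dissection, animal and sex differences cannot be told apart from age. Genes called higher at D1 numbered 179 and lower 14. The fold limit of 0.5 log2 units gave 548 and 256, and 2 log2 units gave 46 and 1. Leaving out E18.5 or D3 gave 376 to 395 higher and 122 to 158 lower. The mean of the neighbours as reference gave 285 and 38. Lower calls numbered 54 with a pseudocount of 0.1, 29 with 0.5, 23 with the fixed sum and 0 with the range of E17.5, E18.5, D3 and D5. Liver genes called higher numbered 39 at 2 log2 units, and the median difference of the liver list was 2.21 with a pseudocount of 0.1 and 1.34 with 0.5. Squamous genes called numbered 11 in the main comparison, 21 at 0.5 log2 units, 1 at 2 log2 units, 20 against the mean, 6 with the fixed sum, 6 with the wider range, and 15 to 24 with either neighbour left out. Neutrophil genes called numbered 7, and 0 at 2 log2 units. Cell-division genes below both neighbours numbered 30, and 18 with the wider range. The alternatives for the cell-division count, and the limits and bounds for the squamous and neutrophil counts, were chosen after seeing the data. The fixed sum moved the median difference of all genes tested from -0.05 to -0.16. Of 660 values of 60 called genes under 11 alternatives, 0 changed sign and 87 moved by more than the deposited bounds. These genes were selected for lying beyond both neighbours, and the alternatives use the same D1 transcriptome. A change of sign was therefore unlikely from the start, and the 0 is no test of robustness. Of 407 list medians, 22 had another sign than in the main comparison, in 13 of 37 lists. The cause of these changes was not tested. No paired analysis was possible because each timepoint had 1 transcriptome and no test was run.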
